A study of Mus musculus with 35 samples.

Results

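Speer genes encode the SPEER proteins, spermatogenesis-associated glutamate-rich proteins that are made in haploid male germ cells of rodents. The family grew by tandem and dispersed duplication, so that its copies are alike in sequence, and the amino-terminal region of the proteins is related to that of DLG5, a scaffold protein of cell junctions. NELFA is a subunit of the negative elongation factor, which holds RNA polymerase II shortly after the start of transcription. The 6 genes described here are Speer3, Speer4a, Speer4b, Speer4c, Speer4d and Speer4e, all protein-coding and on chromosome 5. They were taken from the 49939 genes that the RefSeq annotation of GRCm38.p6 (mm10) places on chromosomes 1 to 19, X and Y. They were chosen by measured values of the tagged NELFA peak list itself, the fold of peaks at these genes and the number of peaks around them. Their peak counts and folds are therefore given as a description, with no test.

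The study examined NELFA and the 2-cell-like state of mouse embryonic stem cells in 35 libraries. The values here come from its 7 chromatin immunoprecipitation (ChIP-seq) libraries. They were made from E14 embryonic stem cells that carry a NELFA transgene with a Strep-HA tag, in the 2i medium, and every one received doxycycline at 0.4 µg/ml for 16 h to induce the transgene. Chromatin was precipitated through the HA tag in 4 libraries from 3 numbered replicates, 3 with a first antibody and 1 with a second, and 3 libraries were input. No ChIP-seq library came from cells without doxycycline or without the tag, so any HA signal independent of the transgene cannot be told apart from NELFA. The other libraries, 20 of RNA-seq and 8 of ATAC-seq, were not used here, and whether these cells express Speer genes was not measured.

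The libraries are represented by 1 list of 59485 peaks, with a fold enrichment for each peak as the authors' peak caller gave it and no value for a single library. There is therefore no replicate error for any value below, and the read depth is unknown. The median peak had a fold of 2.09 and a width of 170 bp. The names of the peaks carry the tag MAPQ0, whose meaning is not stated, and the treatment of reads with several equal alignments is not given in the sources used here. For copies as alike as these, the part of such reads in the counts was not tested.

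Peaks lay thickly at Speer4e, Speer4d and Speer4c, less thickly at Speer4a, sparsely at Speer4b and not at all at Speer3. A summit, the highest point of a peak, was counted for a gene when it lay inside the gene or within 10 kb of either end. The 6 genes had 36, 30, 16, 11, 4 and 0 summits in that order, 97 in all, none of them shared between members. At least 1 summit was present at 5 of the 6 genes, against 42.6% of the 21883 protein-coding genes. The median over the members was 13.5 summits, where the median protein-coding gene had 0. As few as 0.411% of protein-coding genes had as many as Speer4e and 0.649% as many as Speer4d. For Speer4c the share was 1.78%, for Speer4a 3.19% and for Speer4b 11.5%. The first 3 genes held 82 of the 97 summits (84.5%). The plot of summits around each start shows this gradient from gene to gene.

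**Figure D1:**
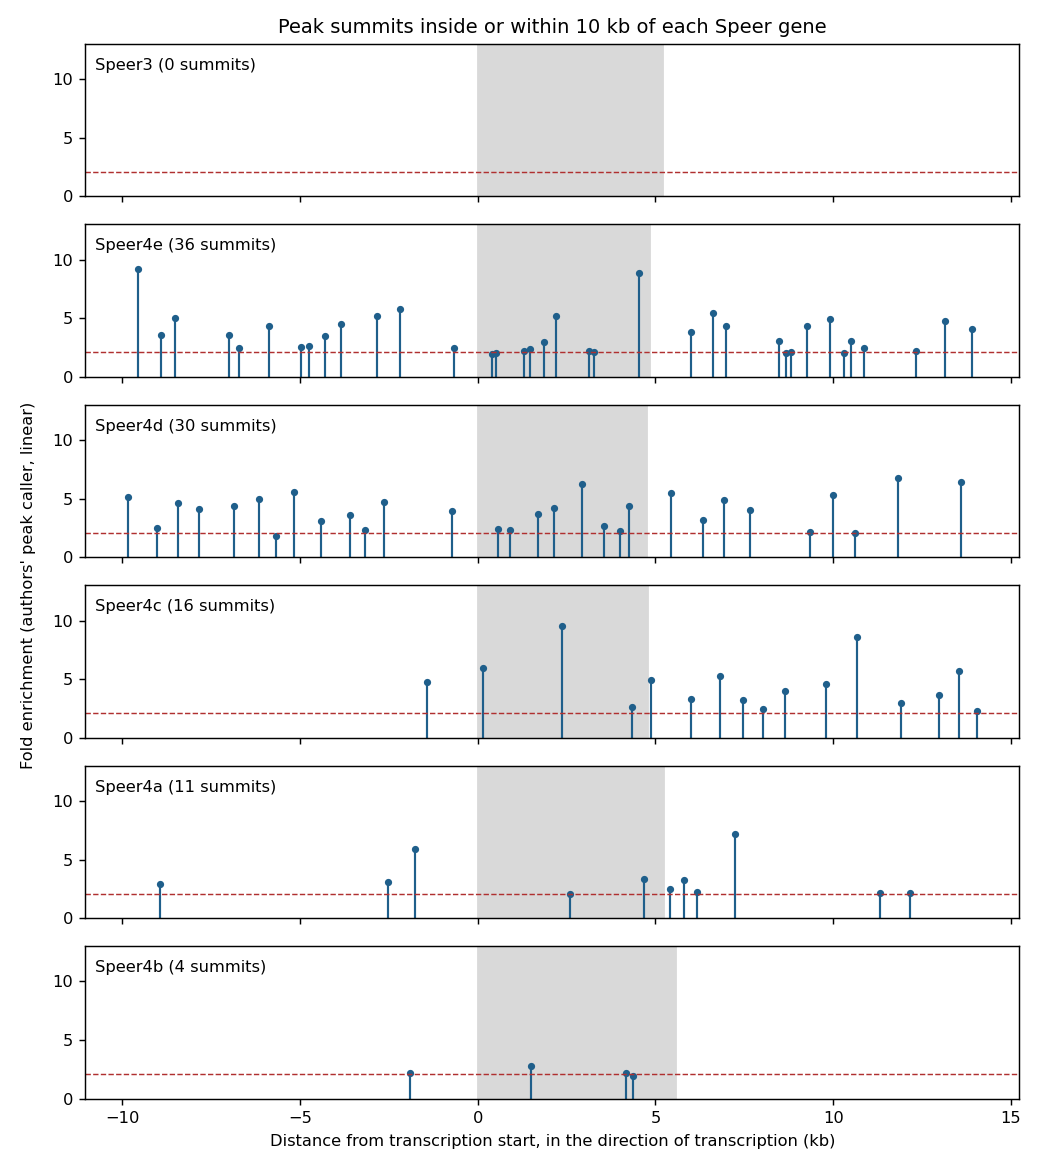
Summits inside or within 10 kb of each of the 6 Speer genes, by distance from the transcription start in kb (x axis, in the direction of transcription) and linear fold enrichment (y axis). Each stem is 1 summit, the grey band is the gene and the dashed line is the median fold of the whole list (2.09). Speer4e has 36 summits and Speer3 has 0.

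By fold, too, Speer4b was the lowest of the Speer4 genes. The 97 summits had a median fold of 3.45 and ranged from 1.82 to 9.5. A fold of at least 5 was given to 21 of them (21.6%), against 3.0% of all peaks. By gene, such peaks numbered 8 at Speer4d, 6 at Speer4e, 5 at Speer4c, 2 at Speer4a and 0 at Speer4b. The median fold was 4.31 at Speer4c, 4.11 at Speer4d, 3.27 at Speer4e, 2.95 at Speer4a and 2.22 at Speer4b. Peaks at the members were also wider, with a median of 321 bp, and 10 of the 97 (10.3%) reached 1 kb, against 4.33% of the list.

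The share of bases inside peaks gave a further measure. Peaks covered 65.0% of Speer4d and its flanks, 49.1% for Speer4e, 47.0% for Speer4c, 16.4% for Speer4a and 3.48% for Speer4b. Within the genes alone the covered share was highest at Speer4c (83.0%), followed by Speer4d (63.8%) and Speer4e (48.4%). It was 11.4% at Speer4b and 9.21% at Speer4a. When peaks separated by 500 bp or less were joined, a step chosen after the data were seen, the 97 summits became 25, of which Speer4e held 9, Speer4a 7 and Speer4d, Speer4c and Speer4b 3 each. The count of separate peaks thus gives another order of the genes than the share of bases covered.

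Speer3 (chromosome 5, 13791619 to 13796819, plus strand) is the member with the most divergent promoter and stood in a stretch with few peaks. Its nearest summit lay 60.8 kb beyond the gene and had a fold of 2.0. Speer4b (27495809 to 27501392, minus strand) lies inside the span of Dpp6, which encodes a subunit that modulates potassium channels and which has 6 summits inside or within 10 kb along its 910 kb. Of the 4 summits of Speer4b, 3 lay inside the gene, at 1506, 4169 and 4355 bp after its start with folds of 2.77, 2.22 and 1.91, and 1 lay 1911 bp before the start with a fold of 2.22. The next summit outside the limit of 10 kb was 131 kb away. All 4 summits of Speer4b also lie inside Dpp6. The long non-coding RNA gene Gm52769 (27500206 to 27503367) has all 4 inside or within 10 kb and 1 of them inside it, so that these summits cannot be assigned to one gene.

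Speer4e (14933631 to 14938475, minus strand) had summits on every side. There were 13 before its start, 9 inside and 14 beyond its 3′ end, with median folds of 3.59, 2.22 and 3.45. Its strongest peak inside had a fold of 8.85, was 1340 bp wide and had its summit 4548 bp after the start, near the 3′ end. A stronger peak (9.17, 2439 bp wide) lay 9558 bp before the start, just inside the limit of 10 kb. It also lies inside Speer8-ps1, a transcribed pseudogene of the family. Of the 36 summits of Speer4e, 20 are shared with Speer8-ps1, which is 55.6% of those of Speer4e and 37.7% of those of the pseudogene. The long non-coding RNA gene Gm52805 has 3 of the 36 within 10 kb.

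Speer4d (15619099 to 15623864, plus strand) had 13 summits before its start, 8 inside and 9 beyond its 3′ end, with median folds of 4.13, 3.2 and 4.9. Its strongest peak, of fold 6.73, lay 7065 bp beyond the 3′ end, and the strongest inside had a fold of 6.22 at 2939 bp after the start. The long non-coding RNA gene Gm30417 spans the whole of Speer4d, and 29 of the 30 summits lie inside it as well. A further gene of this kind, Gm30613, has 9 of them within 10 kb.

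Speer4c (15709505 to 15714298, minus strand) had the strongest peak of the 6 genes. Its fold was 9.5 and its width 2412 bp, with the summit 2378 bp after the start, and it ranked at place 163 of the whole list by fold. A second wide peak inside the gene, of fold 5.95 and 2272 bp, had its summit 158 bp after the start. The distribution was one-sided: 12 summits lay beyond the 3′ end, 3 inside and 1 before the start. Speer4cos, a transcribed pseudogene, overlaps the gene, and all 16 summits of Speer4c were also within 10 kb of it. These made up 43.2% of the summits of Speer4cos.

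Speer4a (26034270 to 26039505, minus strand) had 3 summits before its start, 2 inside and 6 beyond its 3′ end. Both inside were weak to moderate, with folds of 2.09 and 3.36. The strongest (7.17, 1651 bp wide) lay 2008 bp beyond the 3′ end, and the next (5.9) 1775 bp before the start. Just inside the limit of 10 kb was a peak of fold 2.95 at 8.94 kb, and just outside one of 2.45 at 10.8 kb. For Speer4e, Speer4d and Speer4c, the nearest peaks left out by the limit were at 10.5, 10.4 and 10.3 kb, with folds of 3.54, 5.58 and 4.27, so that the limit cuts through the peak regions.

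The transcription start itself was not where the peaks of the members were strongest. A summit within 1 kb of the start was present at 3 of the 6 genes, against 18.6% of the 17491 protein-coding genes with a start in the RefSeq promoter table. These were Speer4c (158 bp away), Speer4e (406 bp) and Speer4d (559 bp). At Speer4e that nearest summit had a fold of 1.95, at Speer4d 2.45 and at Speer4c 5.95. Stronger summits within 1 kb lay 659 bp before the start of Speer4e (2.5) and 726 bp before that of Speer4d (3.95). The nearest summits of Speer4b and Speer4a were 1506 and 1775 bp away. With either end of the gene counted, 4 of 6 had a summit within 1 kb, against 18.8% of protein-coding genes, and Speer4a joined the first 3 through summits at its 3′ end.

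The promoters of the Speer4 members are nearly the same sequence, and among the members only that of Speer4c lay in a peak. RefSeq gives for each gene a window of 250 bases before to 50 after the start. At Speer4c, all 300 bases of the window were covered by the peak of fold 5.95 (chromosome 5, 15712926 to 15715197), whereas no peak touched the windows of the 5 other members. The windows of Speer4e and Speer4d lay in short gaps between peaks. Beside that of Speer4e (14938426 to 14938725), peaks ended at 14938122 and began at 14939049. Beside that of Speer4d (15618849 to 15619148), they ended at 15618586 and began at 15619558. A peak overlapped 12.1% of the windows of protein-coding genes. The following 4 windows are shown because they carry this contrast. They are the covered one, its closest relative without a peak, the Speer4 member with the fewest peaks, and the divergent member. They are written 5′ to 3′ on the gene's strand in GRCm38.p6, and the capitals mark the letters TGATGTCA on either strand.
Speer4c promoter, chr5:15714222-15714521, minus strand: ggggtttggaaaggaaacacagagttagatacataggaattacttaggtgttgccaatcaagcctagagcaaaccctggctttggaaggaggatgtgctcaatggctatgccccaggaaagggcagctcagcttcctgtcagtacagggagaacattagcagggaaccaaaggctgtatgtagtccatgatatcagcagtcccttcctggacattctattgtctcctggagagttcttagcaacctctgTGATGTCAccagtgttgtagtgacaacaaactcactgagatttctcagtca
Speer4e promoter, chr5:14938426-14938725, minus strand: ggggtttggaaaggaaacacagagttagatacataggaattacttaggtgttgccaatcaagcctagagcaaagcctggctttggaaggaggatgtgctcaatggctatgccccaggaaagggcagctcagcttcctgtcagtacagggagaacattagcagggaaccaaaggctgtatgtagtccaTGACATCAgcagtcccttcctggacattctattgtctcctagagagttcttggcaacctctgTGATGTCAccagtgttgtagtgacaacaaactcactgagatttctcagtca
Speer4b promoter, chr5:27501343-27501642, minus strand: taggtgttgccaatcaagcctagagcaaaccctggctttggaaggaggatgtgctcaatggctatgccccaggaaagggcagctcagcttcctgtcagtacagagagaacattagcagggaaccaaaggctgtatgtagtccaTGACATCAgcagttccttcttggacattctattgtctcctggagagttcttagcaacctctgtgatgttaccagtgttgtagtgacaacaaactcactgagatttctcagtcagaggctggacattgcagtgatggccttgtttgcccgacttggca
Speer3 promoter, chr5:13791369-13791668, plus strand: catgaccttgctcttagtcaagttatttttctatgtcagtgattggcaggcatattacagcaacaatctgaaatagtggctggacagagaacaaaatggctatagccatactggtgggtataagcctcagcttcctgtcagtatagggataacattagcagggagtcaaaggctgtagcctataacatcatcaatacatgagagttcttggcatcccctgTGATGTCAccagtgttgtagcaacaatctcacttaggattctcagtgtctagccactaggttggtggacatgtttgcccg

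The windows of Speer4c and Speer4e aligned without a gap and were identical at 296 of 300 positions (98.7%). Counted from 1 at the 5′ end, with the base of Speer4c first, they differ by C74G, T191C, G228A and A239G. The window of Speer4b was 98.0% identical to that of Speer4c over 256 aligned positions, although Speer4b had 4 weak summits and Speer4c 16. Those of Speer4d and Speer4a were 98.1% and 96.5% identical to it over 265 and 254 positions. Speer3 was 62.1 to 64.5% identical to the Speer4 members.

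The promoter windows of the members are poor in CpG, with 0 to 2 CpG dinucleotides each, where the median of all 32851 windows was 7 and 23.3% had 2 or fewer. Their GC content was 44.0 to 49.3%, against a median of 52.7%. The letters TGATGTCA, chosen after the sequences had been read, occur on either strand in all 6 windows and in 3.62% of all windows. Counted to the first of its letters, the match begins 1 base before the start in Speer4c, 63 and 1 bases before it in Speer4e, 98 and 36 in Speer4d, 110 and 48 in Speer4a, 107 in Speer4b and 30 in Speer3. The matches that begin 1 base before the start, in Speer4c and Speer4e, run across it. In Speer4b only the more distant of both places of the other Speer4 genes is kept, and in Speer4c only the nearer. The full cyclic AMP response element, TGACGTCA, was found in none of the 6 windows and in 1.79% of all windows, and the letters TATAAA in none of the 6 and in 13.6%. These matches describe the letters only.

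The members' surroundings also differed. The 1 Mb window centred on each gene held 237 peaks for Speer4d, 237 for Speer4c, 172 for Speer4a, 145 for Speer4e, 16 for Speer4b and 6 for Speer3. The windows of Speer4d and Speer4c overlap and share all 237 peaks. A protein-coding gene had a median of 14 peaks in its window. The 4 fuller windows passed 100 peaks, as those of 6.64% of protein-coding genes did. As many peaks as around Speer4d and Speer4c were found for 1.35% of protein-coding genes, as around Speer4a for 2.38% and as around Speer4e for 3.56%. Speer4b and Speer3 were ordinary in this respect, with 44.4% and 86.0% of genes having as many.

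**Figure D2:**
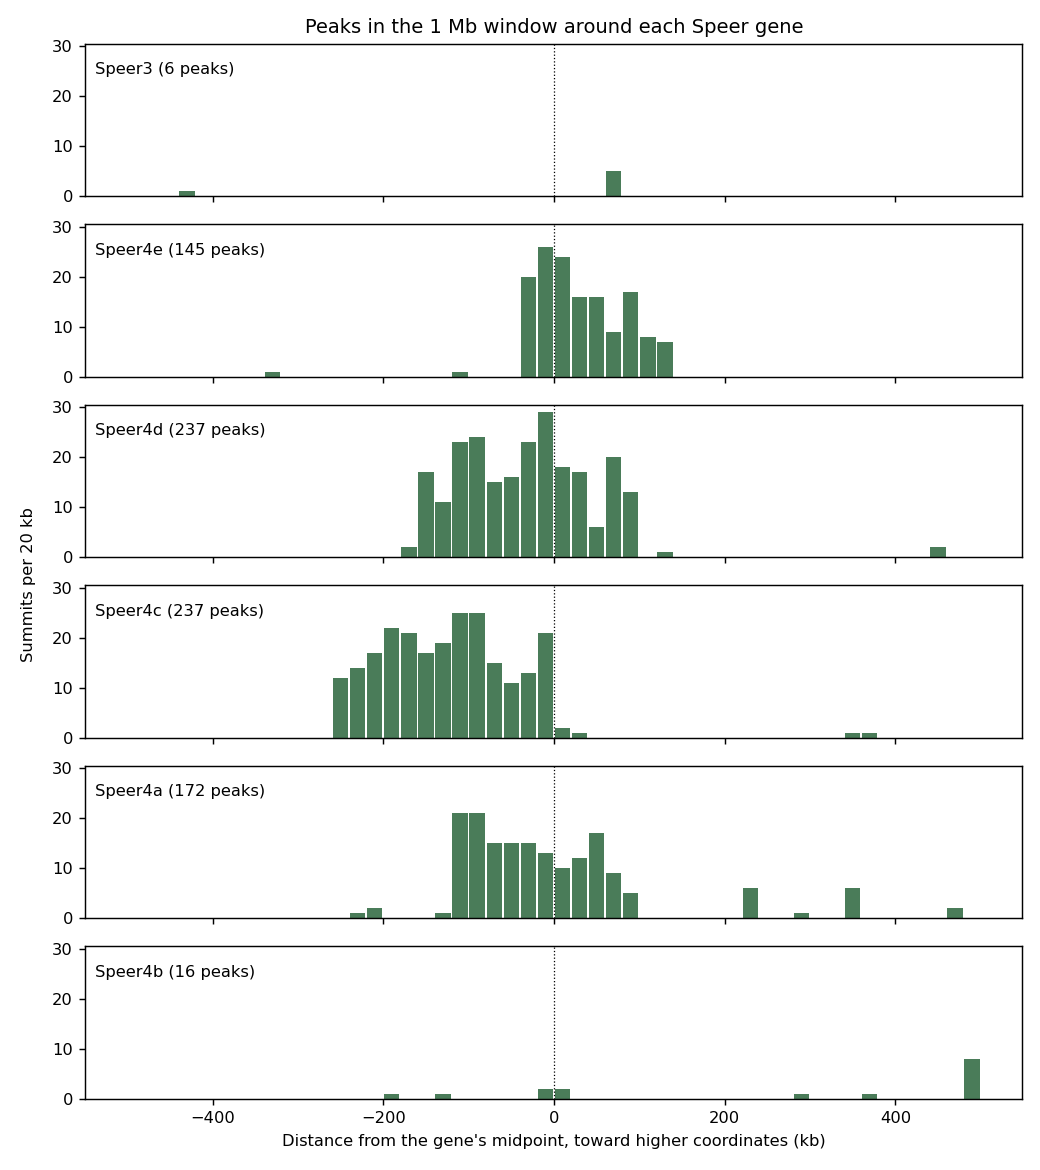
Summits per 20 kb (y axis) by distance in kb from the midpoint of each Speer gene (x axis, toward higher coordinates) across its 1 Mb window. The dotted line marks the gene. Peaks are packed into blocks around Speer4e, Speer4d, Speer4c and Speer4a, with 145 to 237 per window, and the windows of Speer3 and Speer4b hold 6 and 16.

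Within the full windows the peaks were packed into blocks. Of the 50 intervals of 20 kb in a window, 39 held no summit around Speer4e, 34 around Speer4d, 33 around Speer4c and 32 around Speer4a. Speer4d sat in the largest block. When summits under 5 kb apart were chained, its block reached from 15460744 to 15665648 (205 kb) with 197 peaks, a median fold of 3.36 and a highest of 11.7, and peaks covered 57.4% of it. The next block, from 15670760 to 15715958 (45.2 kb), held Speer4c and 37 peaks and ended just beyond the start of that gene, where Speer4c had its 1 upstream summit. Speer4e lay in a block of 63.9 kb with 79 peaks and Speer4a in one of 35.7 kb with 24. The outermost upstream summit of Speer4a fell in a further block of 26.6 kb with 17 peaks. Where blocks divide depends on the limit of 5 kb. The peaks of Speer4b formed a run of 6.36 kb with 4.

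On chromosome 5 as a whole, cut into 149 consecutive intervals of 1 Mb with a median of 12 peaks, the interval that starts at 15 Mb was the fullest with 272. It holds Speer4d and Speer4c. The interval of Speer4e ranked 3rd with 108 peaks and that of Speer4a 4th with 95, behind one at the far end of the chromosome with 181. The fullest 4 intervals held 24.9% of the 2638 peaks of chromosome 5.

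The blocks also hold other genes with a Speer4-like promoter that have no family name. Such genes are called copies here, although only promoter windows were compared, not whole genes or proteins. Promoter windows of the annotation that share at least 20 words of 12 letters with a Speer4 member were aligned with the windows of all 5, and those at least 80% identical over at least 200 aligned positions were kept, a search by sequence alone that was added after the data were seen. It found 24 genes, all on chromosome 5: the 5 members, Speer4f1, Speer4f2 and 17 genes with provisional names such as Gm21190. The letters TGATGTCA occur in the window of each of the 24 and in 3.62% of all windows. The letters were read from the Speer promoters and the 24 were selected by likeness to them. This count therefore follows largely from the selection. The 24 fell into 4 clusters separated by more than 1 Mb.

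The first cluster (14910124 to 15714298) holds 9 copies, among them Speer4e, Speer4d and Speer4c, and all 9 had 16 to 36 summits (median 24) with highest folds of 6.73 to 9.5. A peak covered at least part of the promoter window in 7 of the 9, against 12.1% of the windows of protein-coding genes. Speer4e and Speer4d were the exceptions, with windows 98.7% and 98.1% identical to that of Speer4c, where the range over the 9 copies was 97.7 to 99.1% against the nearest member. The window of Gm21190, which was 99.1% identical to that of Speer4c, lay under a peak of fold 6.39, and that of Gm9758 under one of 6.11.

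The third cluster (25935658 to 26264312) holds 12 copies, Speer4a among them, with 6 to 27 summits (median 17) and highest folds of 3.22 to 7.17. Speer4a, with 11, was at the lower end, level with Gm10220 and above Gm7361 with 6. Gm7361 spans 86.1 kb, with its Speer4-like window (26257512 to 26257811) inside that span, so its count covers a longer stretch. A peak lay over the promoter window of 7 of the 12, against 12.1% of the windows of protein-coding genes. The folds were 2.5 to 5.95, and the window of Speer4a had no peak.

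Away from these clusters, copies had few peaks or none. The second cluster holds Speer4f1 and Speer4f2, 2 named genes of the family that are not members. Their windows were 88.3% and 87.7% identical to that of Speer4c. Speer4f1 (17476122 to 17480936) had 5 summits, none inside the gene, with a highest fold of 5.72, and Speer4f2 (17373186 to 17377992) had 0. Their 1 Mb windows held 19 and 20 peaks. Speer4b forms the fourth cluster alone. Of the 24 copies, 20 had 10 or more summits, against 3.71% of protein-coding genes, and the 4 with fewer were Speer4b, Speer4f1, Speer4f2 and Gm7361. Without the members, 16 of 19 did. The members were chosen by their peaks and by the number of peaks around them, and the unnamed copies lie in their windows. High counts over the copies, here and in the clusters above, therefore follow in part from that choice. Neighbouring copies can share summits when they are under 20 kb apart, and these counts are not independent of one another.

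**Figure D3:**
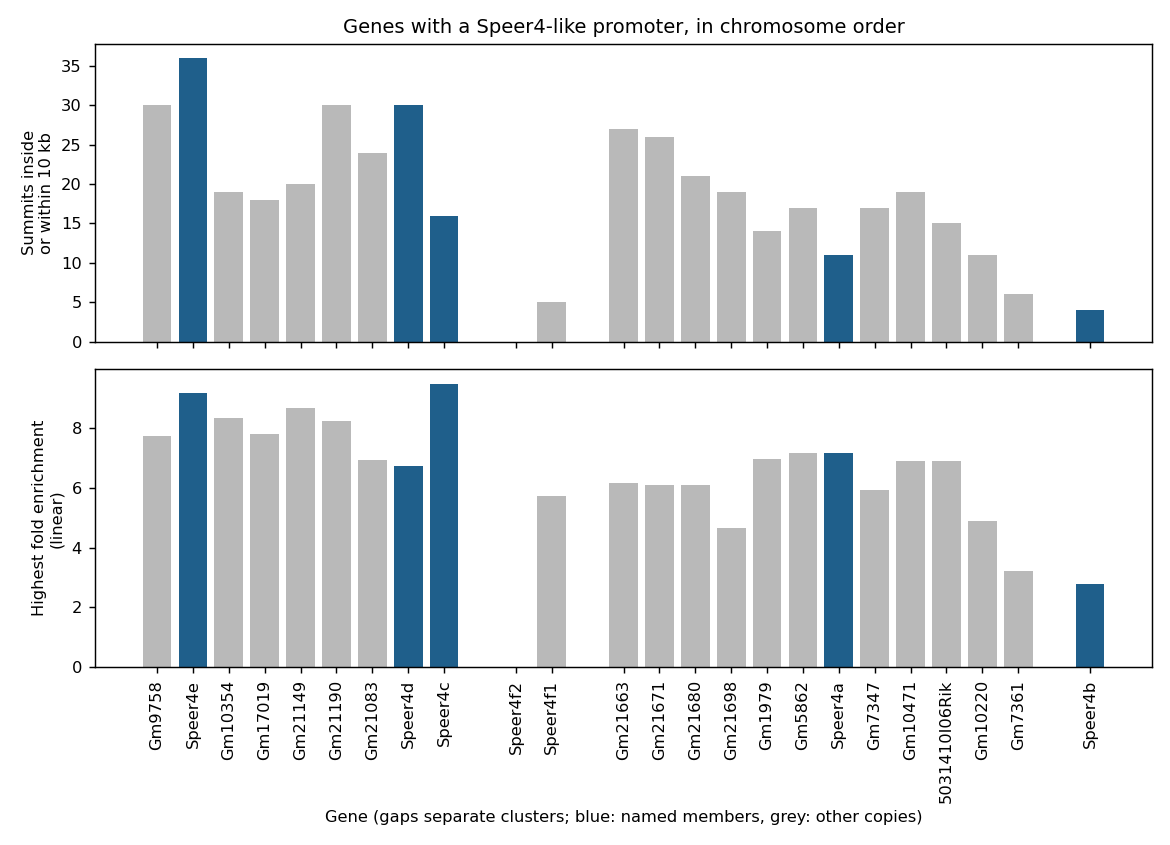
The 24 genes of chromosome 5 with a promoter window at least 80% identical to a Speer4 member, in chromosome order (x axis), with the number of summits inside or within 10 kb (upper y axis) and the highest linear fold enrichment there (lower y axis). Blue bars are the named members, grey bars the other copies, and gaps separate the 4 clusters. Speer4f2 has no summit, and Speer4b has 4 with a highest fold of 2.77.

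Across the copies of the first and the third cluster, coverage by peaks was spread along the genes and not concentrated at the start. In steps of 500 bp from 5 kb before to 10 kb after the start, the mean covered share over the 9 copies of the first cluster was 38.9 to 78.3% (median 61.4%), highest 5.25 kb after the start. Over the 12 copies of the third cluster it was 17.5 to 48.8% (median 32.5%), highest 0.75 kb after the start. Each step of the first cluster had at least 6 of the 9 copies overlapped by a peak. The copies differ in gene length and are neighbours, so steps far from one start can lie near another.

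**Figure D4:**
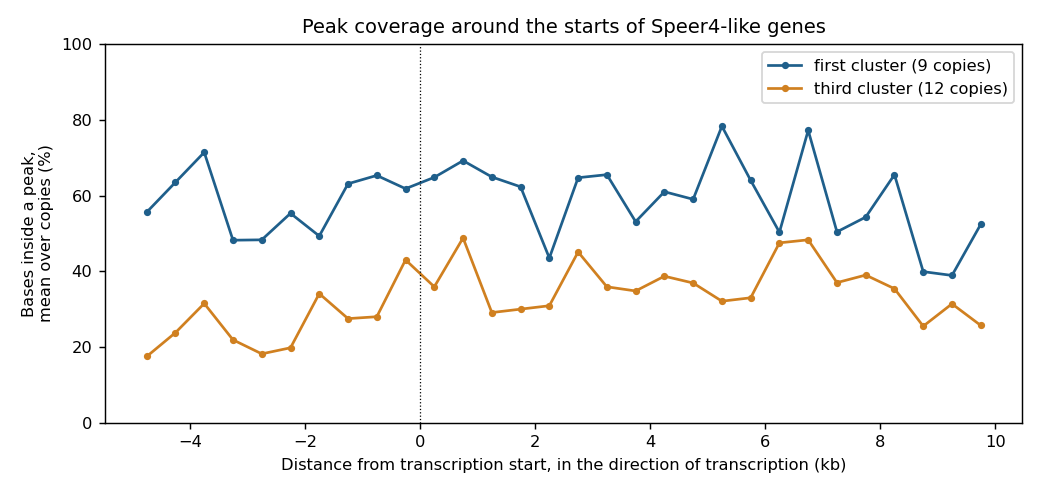
Mean share of bases inside a peak (y axis, %) in steps of 500 bp, by distance from the transcription start in kb (x axis, in the direction of transcription), over the copies of the first (blue, 9 copies) and the third cluster (orange, 12 copies). Coverage runs from 38.9 to 78.3% in the first and from 17.5 to 48.8% in the third, without a single maximum at the start.

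Of the 9 other named genes of the family, 4 had a summit inside or within 10 kb. They were 1 of the 4 protein-coding genes (25.0%, against 42.6% of all protein-coding genes) and 3 of the 5 pseudogenes (60.0%). Speer1, Speer2, Speer4f2 and the pseudogenes Speer5-ps1 and Speer9-ps1 had 0 summits, and Speer6-ps1 had 1 of fold 1.95. The exceptions beside Speer4f1 were Speer8-ps1 with 53 summits and Speer4cos with 37, which lie in the blocks of Speer4e and Speer4c. Speer1 (11340408 to 11346273) and Speer2, the copy on chromosome 16, stood in 1 Mb windows of 20 and 8 peaks. Dlg5, whose product shares the amino-terminal relation, had 1 peak of fold 2.0 with its summit inside the gene within 1 kb of its start.

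The windows of the members touch 28 other protein-coding genes, 23 of them with a summit inside or within 10 kb. The share over all protein-coding genes was 42.6%. Because the members were chosen partly by the number of peaks around them, the count of 23 follows in part from that choice. All 17 Speer4-like copies with provisional names are among the 23. The 5 with the most were Gm21190 and Gm9758 (30 each), Gm21663 (27), Gm21671 (26) and Gm21083 (24), all of them Speer4-like copies. Among genes in these windows that are no copies, Cacna2d1, the gene of a calcium channel subunit beside the block of Speer4c, had 5 summits along 440 kb with a highest fold of 2.31. Pclo, a gene of the presynaptic active zone beside Speer4e, had 2 along 349 kb with a highest fold of 2.22. Actr3b, which encodes an actin-related protein and lies in the window of Speer4a, had 3 along 90.8 kb with a highest fold of 4.22. Around Speer3, the semaphorin genes Sema3a and Sema3e had 2 and 0. Of the members' summits, Gm9758 shared 1 with Speer4e, and Gm5862 and Gm7347 shared 3 and 2 with Speer4a.

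Other families of tandem copies gave mixed values. All 4 protein-coding Zscan4 genes, markers of the 2-cell-like state, had a summit, with a median of 9.5 summits and a highest fold of 3.95. Of the 8 Tdpoz genes, 7 had one, with a median of 6 summits and a highest fold of 6.35. Of 123 Vmn2r genes, which encode vomeronasal receptors, 54 (43.9%, near the 42.6% of all protein-coding genes) had one, with a median of 0 and a highest fold of 10.1. Of 20 germ cell genes chosen for comparison, 7 (35.0%) had a summit, with a highest fold of 2.77 at Spata16, a gene of sperm formation. Some of these genes are neighbours. Prm2 and Tnp2, both on chromosome 16, each had 1 summit of fold 1.86, which can be the same peak. None of the 20 had one within 1 kb of an end, against 18.8% of protein-coding genes. With 1 list and no value per library, no difference between these groups was tested.

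The genes elsewhere whose values were most like those of the 5 members with peaks were a mixture. Likeness was the distance to the members' medians in the log2 of the summit count, of the highest fold and of the peaks in the 1 Mb window. Tdpoz3 was nearest (16 summits, highest fold 6.35, 231 peaks in the window), followed by 9530057J20Rik (12, 8.78 and 178) and Gm5662 (15, 9.76 and 211). Kifc3 (14, 5.63 and 127) and Med26 (15, 5.08 and 212) came next.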

How the data were processed

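Per the submitters' processing notes, reads were handled with Trim Galore 0.4.2, SAMtools 1.4, Bowtie2 2.2.9 and MACS2, on build mm10. Neither the settings nor the pooling of libraries is stated there. The deposited list gives for each peak a linear fold enrichment ratio and the −log10 of its q-value, as the authors' peak caller wrote them. The lowest −log10 q was 1.31. Summits were taken from the deposited offsets. Gene positions and promoter windows came from RefSeq tables of GRCm38.p6, matched by gene identifier. The 6 members and 4 other protein-coding Speer genes matched the promoter table. Promoter windows were aligned globally with free end gaps (match 1, mismatch -1, gap opening -3, extension -0.5). Windows sharing at least 20 words of 12 letters with a Speer4 member were compared with all of them.

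The members and lists were chosen with earlier results of these data known. Genes were named by a rule: all members and Speer genes, Dlg5, genes sharing a member's summits, the 5 genes with the most summits in the members' windows and the 5 most alike elsewhere. Gm21190, Gm9758, Gm10220 and Gm7361 among the copies, and Cacna2d1, Pclo, Actr3b, Sema3a, Sema3e and Spata16, were chosen after their values were seen. Alternatives covered the peak threshold, the distance and interval overlap. Counting was tested on simulated data. Python 3.11.15, numpy 2.4.6, pandas 2.3.3, biopython 1.88 and matplotlib 3.10.9 were used.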

Additional observations from a re-analysis of the deposited data

How the results depend on the processing

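The number of members with a summit (5 of 6) and the highest fold (9.5) were the same in each of the 6 alternatives run. The peak of fold 9.5 has its summit inside Speer4c, so stricter peak thresholds or a shorter distance could not lower the highest fold. With the distance limits made shorter (5 kb) there were 63 summits at the members, with longer limits (20 kb) 168, and with peaks 500 bp or less apart joined 25, against 97. The median fold of 3.45 became 3.61 with peaks at or above the list's median fold, 3.97 with a −log10 q of at least 4, 3.59 with interval overlap, 3.27 and 3.54 with the shorter and longer limits and 4.63 after joining. The median count of the windows, 158.5 peaks, was 280 in windows of 2 Mb and 48.5 after joining. Members with a summit near the start numbered 5 with a limit of 2 kb, in place of 3. Other counts stayed within 1.5 times. No paired analysis was possible because the list holds no value per library, and leaving out a replicate was not possible for the same reason. The unknown depth sets an unknown floor for genes without a peak, such as Speer3.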
